A study of Mus musculus with 30 samples.

Results

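Rab GTPases are the largest branch of the Ras superfamily of small GTP-binding proteins, and they direct membrane traffic inside the cell. Each Rab marks a particular membrane and, when bound to GTP, recruits effectors that form, move, tether or fuse vesicles there. Exchange factors load GTP, GTPase-activating proteins end the active state, and escort proteins and GDP dissociation inhibitors carry the lipid-modified Rab between membrane and cytosol. In spermatogonial stem cells (SSCs), which renew themselves in response to growth factors from the niche, receptors at the cell surface depend on the endosomes that Rabs organise.

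The mRNAs of Rab genes were examined in SSC lines, which are cultures of mouse spermatogonial stem cells grown on fibroblast feeders. The members were chosen by name, as every symbol made of Rab, a number and further lower-case letters or digits, and 55 of the 14558 symbols in the deposited tables met this rule. The rule does not select GTPases alone. Of the 55 members, 45 encode Rab GTPases, and 10 encode proteins that regulate or bind a Rab and carry its name, namely *Rab3gap1*, *Rab3gap2*, *Rab3ip*, *Rab3il1*, *Rab5if* and *Rab11fip1* to *Rab11fip5*. These 10 are called partners here, and all 55 are called Rab mRNAs.

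The study asked how NANOS2, an RNA-binding protein of undifferentiated male germ cells, acts on mRNAs, and both lines compared here carry a tag on the endogenous *Nanos2* gene. Line 4 was *Nanos2* TAG/+, with 1 tagged and 1 wild-type allele, and line 5 was *Nanos2* TAG/TAG, with both alleles tagged. Neither line lacks *Nanos2*, and no untagged SSC line enters these tables. RNA-seq was performed on ribosomal RNA-depleted total RNA of 1 library per line, and the authors deposited FPKM, that is, reads scaled to gene length and library size. SLAM-seq was performed on 12 libraries per line, at 0, 30, 60, 120, 540 and 1440 min of a chase after labelling new RNA with 4-thiouridine, and the authors deposited, per line, a single fitted half-life (in minutes) of every transcript listed. Each genotype is thus a single line. RNA for RNA-seq was extracted with QIAzol from the TAG/+ line and with Trizol from the TAG/TAG line, so that genotype, line and reagent cannot be told apart. With 1 library and 1 half-life per line there was no replicate error and no test between lines, and all differences below describe these lines only.

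FPKM values were listed for 13904 genes. Those of the 13884 genes with an annotated length corresponded to 10977831 reads in the TAG/+ library and 11656606 reads in the TAG/TAG library. Of 8 genes taken as markers of undifferentiated spermatogonia, 7 were listed and *Dazl*, which the paper links to SSC differentiation, was not. The summed FPKM of the 7 was 342 in the TAG/+ line and 638 in the TAG/TAG line, but the genes did not rise together. *Etv5* (46.0 and 178) and *Ret* (73.2 and 181) were more than 2-fold higher in TAG/TAG. *Gfra1* (56.2 and 111) and *Ddx4* (31.0 and 41.4) were higher by less than 2-fold. *Zbtb16* (107 and 102), *Id4* (1.76 and 1.59) and *Nanos2* itself (27.5 and 23.8 FPKM) were slightly lower. Of 10 fibroblast markers 9 were listed and *Lum* was not, with a summed FPKM of 323 and 407. *Fn1* made up most of that sum (254 and 280 FPKM), and 4 of the 9 (*Col6a1*, *Thy1*, *Pdgfrb* and *Dcn*) were more than 2-fold higher in TAG/TAG. Whether the genes of either list, *Thy1* included, are particular to that cell type in these cultures was not tested. The labels describe depletion of feeders before extraction, and the methods describe sorted SSCs, both steps meant to remove fibroblasts. In bulk RNA, more cells of a type and more RNA per cell cannot be told apart, and the part of either marker list in the values of Rab mRNAs was not tested.

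An FPKM value was listed for 51 Rab mRNAs and a half-life for 28. Both were listed for 24. *Rab5a*, *Rab11b*, *Rab14* and *Rab18* had a half-life but no FPKM, and the other 27 had an FPKM only. Rab mRNAs with a half-life were the more abundant ones, with a median of the mean FPKM of 19.3 against 3.51 for those without, and the same was seen for all genes (29.3 against 4.83).

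Rab mRNAs as a group were neither rare nor abundant. Their median FPKM was 9.35 in TAG/+ and 8.20 in TAG/TAG, against 10.2 and 10.5 over all genes, and 24 and 23 of the 51 were above the median of all genes. Their summed FPKM was 1051 and 1058, of which the GTPases took 807 and 823. A small number of GTPases carried much of this sum.

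*Rab5c*, which controls fusion at early endosomes, had the most abundant mRNA of the 51 with an FPKM in both lines, with 171 FPKM in TAG/+ and 147 in TAG/TAG. *Rab11a*, the main Rab of recycling endosomes, followed with 75.5 and 103 FPKM. *Rab35*, which acts in fast recycling to the plasma membrane, was at 70.3 and 94.0 FPKM. These mRNAs therefore covered uptake and return of membrane at the cell surface. *Rab6a*, a Golgi Rab of retrograde transport, was at 70.5 and 68.0 FPKM, and *Rab7*, which directs late endosomes to lysosomes, at 53.3 and 76.5 FPKM. The same 5 mRNAs were the highest of the 51 by the mean of both lines, and none differed by more than 2-fold between the lines. FPKM was scaled to the mean length of a gene's annotated transcripts, so the order of genes depends on that length. For *Rab11a* it was 758 nucleotides, although an annotated 3′ UTR of this gene alone has 1550. By reads, not scaled to length, *Rab11a* (624 and 920) came below *Rab10* (1199 and 1257).

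**Figure D1:**
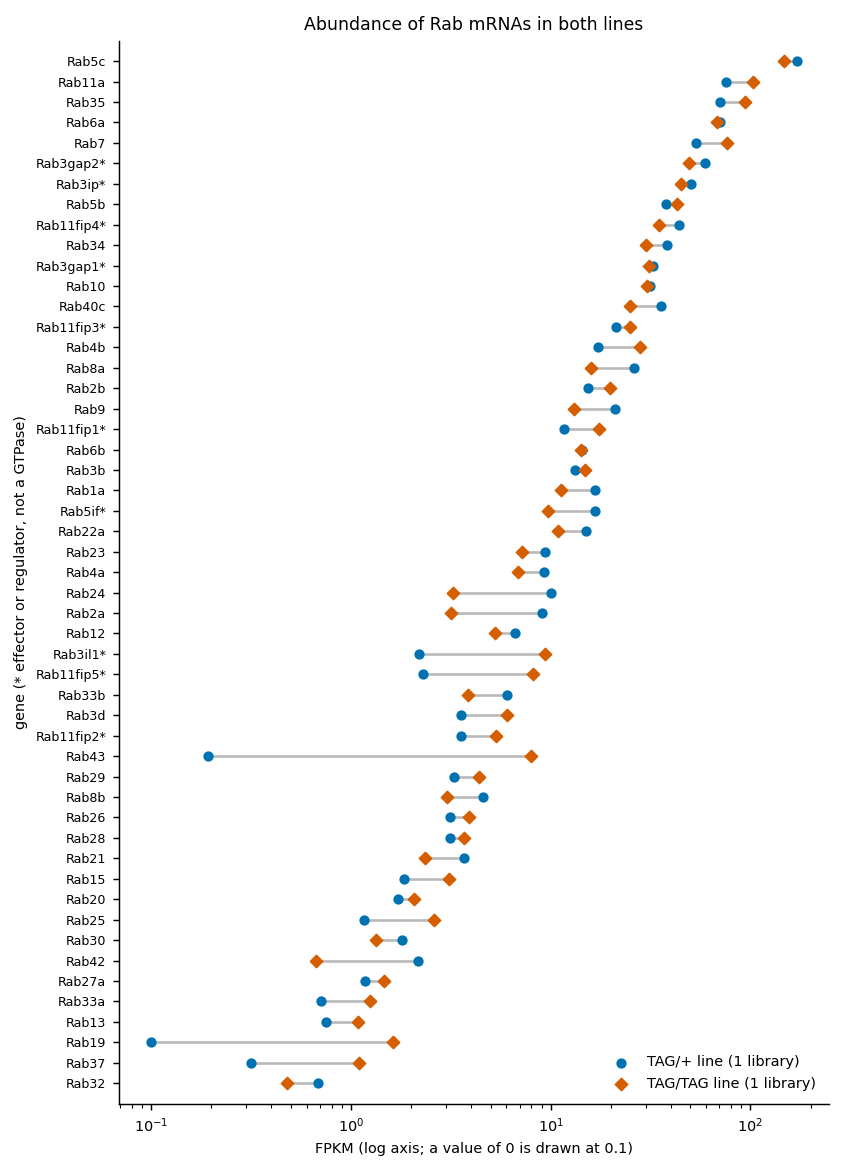
FPKM (log axis) of the 51 Rab mRNAs with an RNA-seq value, ordered by the mean of both lines, with 1 library per line, so that no error bar can be given. Circles are the Nanos2 TAG/+ line and diamonds the Nanos2 TAG/TAG line, an asterisk marks the 10 effectors and regulators, and Rab19, listed at 0 in TAG/+, is drawn at 0.1. *Rab5c* stands at the top, and *Rab43*, *Rab3il1* and *Rab11fip5* show the widest gaps among mRNAs past the filter.

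At the other end, 5 GTPase mRNAs had a mean FPKM below 1, the filter used for fold changes. *Rab32*, known from lysosome-related organelles such as melanosomes, was at 0.685 and 0.478 FPKM (12 and 9 reads). *Rab13*, which acts at tight junctions, was at 0.754 and 1.09 (9 and 14 reads), and *Rab33a*, a paralog of the Golgi Rab *Rab33b*, at 0.712 and 1.25 (9 and 17 reads). *Rab37*, a Rab of secretory granules, was at 0.317 and 1.09 (7 and 26 reads). *Rab19* was listed at 0 in TAG/+ and at 1.62 FPKM in TAG/TAG (30 reads), which is at least 9.29-fold higher when the TAG/+ library is set to a floor of 3 reads. All 5 rest on few reads, and their differences are not counted below.

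By role, the 7 early endosomal Rabs with an FPKM summed to 256 in TAG/+ and 240 in TAG/TAG. Besides *Rab5c* this group included *Rab5b* (37.9 and 42.9), the fast-recycling Rabs *Rab4a* (9.29 and 6.84) and *Rab4b* (17.3 and 28.2), and the *Rab5* relative *Rab22a* (15.0 and 10.9). The 9 Rabs of recycling and delivery to the surface with an FPKM summed to 218 and 259. In this group *Rab10* (31.3 and 30.5) and *Rab8a* (26.1 and 15.9), both Rabs of exocytosis, came after *Rab11a* and *Rab35*. Among Rabs with an FPKM, the early endosomal group was thus the highest in TAG/+ and the recycling group in TAG/TAG. *Rab5a* of the former and *Rab11b* and *Rab14* of the latter had no FPKM, so this order could differ with them. The order in TAG/TAG also depends on the short length of 758 nucleotides to which *Rab11a* (103 FPKM) was scaled. The 11 Rabs of the endoplasmic reticulum and Golgi with an FPKM summed to 173 and 162, and here *Rab34* (38.3 and 29.95), which also acts in cilium formation, was next after *Rab6a*. The 5 Rabs of late endosomes and lysosomes summed to 88.3 and 97.7. Rabs of regulated secretion were low, with a sum of 21.4 and 27.4 over 5 genes, most of it *Rab3b* (13.2 and 14.9). The 4 remaining GTPases summed to 50.3 and 36.5, most of it *Rab40c* (35.6 and 24.9), a Rab with a SOCS box that joins ubiquitin ligases.

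The remaining GTPase mRNAs were at moderate or low levels. In the Golgi group, *Rab1a*, which acts in transport from the endoplasmic reticulum to the Golgi, was at 16.6 and 11.3 FPKM, *Rab6b* at 14.3 and 14.2, *Rab33b* at 6.05 and 3.87 and *Rab30* at 1.79 and 1.34. Among endosomal Rabs, *Rab9*, which returns receptors from late endosomes to the Golgi, was at 20.97 and 13.1 FPKM, *Rab29* at 3.27 and 4.37, *Rab21* at 3.67 and 2.35 and *Rab20* at 1.71 and 2.08. All of these differed by less than 2-fold between the lines. *Rab12* was at 6.61 and 5.25 FPKM, *Rab8b* at 4.59 and 3.02 and *Rab15* at 1.84 and 3.09. *Rab26* (3.12 and 3.89) and *Rab27a* (1.18 and 1.46), both Rabs of secretory granules, were low, as was *Rab28* (3.14 and 3.69), known from cilia, whereas *Rab23* was at 9.35 and 7.22.

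The 10 partners summed to 244 FPKM in TAG/+ and 235 in TAG/TAG. *Rab3gap2*, the non-catalytic subunit of the complex with *Rab3gap1* (32.7 and 30.97 FPKM), was the most abundant of them, at 59.3 and 49.1 FPKM. *Rab3ip*, the exchange factor for RAB8, was at 50.5 and 44.8 FPKM, *Rab11fip3* at 21.3 and 25.01, and *Rab5if* at 16.6 and 9.75 FPKM (half-life 240 and 268 min).

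Fold changes between the lines were taken as log2 ratios of FPKM, TAG/TAG over TAG/+, after adding 0.1 FPKM, for genes with a mean FPKM of at least 1. Of 46 Rab mRNAs past this filter, 4 were more than 2-fold higher in TAG/TAG and 3 more than 2-fold lower. With a pseudocount of 1 FPKM in place of 0.1, 3 were higher and 2 lower (8.53% and 6.34% of all genes), and *Rab25* and *Rab42* were no longer past the limit. Over all 12546 genes past the filter, 11.7% were higher and 8.67% lower by the main rule, so that the share of Rab mRNAs was no greater than that of genes in general. The median log2 ratio of Rab mRNAs was -0.04, with 21 positive and 25 negative, and that of all genes was near 0 (-0.0025). The median size of the log2 ratio, without its sign, was 0.44 for Rab mRNAs and 0.44 for all genes. As a group, Rab mRNAs therefore differed between the lines about as much as other mRNAs.

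The widest difference was that of *Rab43*, a Golgi Rab at position 87788853 to 87812164 on chromosome 6 (GRCm38, minus strand), with 0.192 FPKM in TAG/+ and 8.01 in TAG/TAG (4 and 180 reads). The log2 ratio was 4.80, and the 95% counting interval of the ratio (Clopper-Pearson, conditional on both counts, covering counting error only) was 16.1 to 155. However, 86.5% of the 50-mers of *Rab43* transcripts also occur in another annotated gene, most often in *Gm45140*, which went the other way with 98 reads in TAG/+ and 30 in TAG/TAG. The summed reads of both genes were 102 and 210, a ratio of 1.91 per scaling depth (the library depth that FPKM was scaled to). How reads were divided between *Rab43* and *Gm45140* can therefore affect this value, and its part in the difference was not tested. The half-life of *Rab43* is a separate measure and was nearly equal in both lines (143 and 147 min).

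The other members past 2-fold share at most 4.78% of their 50-mers with another gene. *Rab3il1*, a guanine nucleotide exchange factor related to *Rab3ip*, was at 2.20 FPKM in TAG/+ and 9.40 in TAG/TAG (45 and 207 reads, log2 ratio 2.05, ratio interval 3.08 to 6.04). *Rab11fip5*, an effector that binds RAB11 on recycling endosomes, was at 2.29 and 8.20 FPKM (91 and 351 reads, log2 ratio 1.80, interval 2.84 to 4.57). *Rab25*, a *Rab11* relative known from epithelia, was at 1.17 and 2.60 FPKM (10 and 24 reads, log2 ratio 1.09, interval 1.03 to 5.23). The interval of *Rab25* reaches almost to 1.

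The lower mRNAs in TAG/TAG were all GTPases. *Rab24*, an atypical Rab linked to autophagy, was at 10.04 FPKM in TAG/+ and 3.26 in TAG/TAG (126 and 44 reads, log2 ratio -1.59, interval 0.225 to 0.461). *Rab2a*, which acts between the endoplasmic reticulum and the Golgi, was at 9.07 and 3.16 FPKM (211 and 79 reads, log2 ratio -1.49, interval 0.265 to 0.453). *Rab42*, a little-studied Rab, was at 2.17 and 0.672 FPKM (18 and 6 reads, log2 ratio -1.56, interval 0.101 to 0.815). For *Rab24* and *Rab2a* the whole interval was below a 2-fold reduction, and for *Rab42* it was not.

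Among the 46 mRNAs, counting error alone left the interval of the ratio wholly above 1 in 14, wholly below 1 in 19 and across 1 in 13. It was wholly beyond 2-fold in 3 that were higher and 2 that were lower. Only 2 of the 46 had fewer than 50 reads over both libraries, the lowest having 24. Intervals were not computed for other genes, so these counts cannot be set against a share of all genes and are not read as particular to Rab mRNAs. The intervals hold for the reads of these libraries and say nothing of the spread between cultures.

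The signs of the ratios were counted by role, in small numbers of genes and with no test between roles. Of the 9 endoplasmic reticulum and Golgi Rabs past the filter, 7 had a negative ratio and 2 a positive one, with a median log2 ratio of -0.35. Of the negative ones, the counting interval spanned 1 for *Rab6a* (0.904 to 1.03), *Rab6b* (0.868 to 1.13) and *Rab30* (0.483 to 1.15). It was wholly below 1 for *Rab1a*, *Rab2a*, *Rab33b* and *Rab34*. The positive ones were *Rab2b* and *Rab43*, the latter with the shared sequence described above. All 4 Rabs of regulated secretion past the filter had a positive ratio (median 0.30), the highest being *Rab3d* at 3.56 and 6.03 FPKM. Of these 4, however, the counting interval left out 1 for *Rab3d* (1.26 to 2.29) and spanned it for the other 3. The 5 RAB11 effectors had a median of 0.57, with 4 positive, including *Rab11fip1* (11.6 and 17.5) and *Rab11fip2* (3.58 and 5.34), and only *Rab11fip4* (44.0 and 34.8) was negative. Early endosomal Rabs (median -0.22 over 7 genes), late endosomal Rabs (-0.13 over 4) and Rabs of recycling and surface delivery (0.19 over 8) held both directions. Against the median of all genes, near 0, these are shifts of less than 2-fold in a single pair of libraries.

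Paralogs that share a number often split unequally. *Rab5c* made up 81.9% of the summed FPKM of *Rab5b* and *Rab5c* in TAG/+ and 77.4% in TAG/TAG. *Rab6a* made up 83.1% and 82.8% of the pair with *Rab6b*, a paralog best known from neurons, and *Rab8a* made up 85.0% and 84.0% of the pair with *Rab8b*. These shares were close to each other in both lines. In the *Rab2* pair the share of *Rab2a* was 37.1% in TAG/+ and 13.8% in TAG/TAG, because *Rab2a* was lower while *Rab2b* was at 15.4 and 19.7 FPKM. *Rab4a* likewise made up 34.9% of the *Rab4* pair in TAG/+ and 19.5% in TAG/TAG. For *Rab4b*, 72.4% of 50-mers also occur in another annotated gene, most often in *Gm21983*, so that the level of *Rab4b* depends on how shared reads were divided. *Rab3b* made up 78.7% and 71.2% of its pair with *Rab3d*, and *Rab33b* 89.5% and 75.6% of its pair with *Rab33a*, which had no more than 17 reads in a library.

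Processed pseudogenes share sequence with some abundant Rabs too. For *Rab7*, 14.1% of 50-mers also occur elsewhere, most often in *Rab7-ps1*, which was at 23.6 FPKM in TAG/+ and listed at 0 in TAG/TAG. The reads of *Rab7* and *Rab7-ps1* together were 987 and 1277, a ratio of 1.20 per scaling depth. For *Rab5b* the corresponding share was 14.6%, with *Gm13991* at 2.97 FPKM in TAG/+ and listed at 0 in TAG/TAG, and for *Rab9* it was 10.5%. The summed reads of *Rab5b* and *Gm13991* were 1014 and 1211, a ratio of 1.11, close to that of *Rab5b* alone (1.13). For *Rab7* alone the ratio was 1.43, further from that of its summed reads. The part of read division in these ratios was not tested.

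The second readout, mRNA half-life, placed Rab mRNAs near the middle of the transcriptome. The median half-life of the 28 Rab mRNAs was 232 min in TAG/+ and 239 min in TAG/TAG, against 224 and 226 min over all 5806 transcripts. Of the 28, 10 were below the median of all transcripts in both lines and 12 above it in both, and each of these held for 39.8% of all transcripts. Rab half-lives ranged from 96.3 to 844 min in TAG/+ and from 80.2 to 887 min in TAG/TAG.

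*Rab3gap1*, the catalytic subunit of the complex that inactivates RAB3 and activates RAB18, had the longest half-life of all Rab mRNAs, at 844 and 887 min. It was the only Rab mRNA above 540 min, beyond which the chase has a single later time. *Rab2a* was at 367 and 429 min, although its FPKM was low. The recycling Rabs *Rab11a* (403 and 392 min) and *Rab11b* (376 and 378 min) and the early endosomal *Rab5c* (343 and 352 min) were also long-lived. Together with *Rab18* (321 and 316 min), a Rab of lipid droplets and the endoplasmic reticulum, these 6 were above the upper quartile of all transcripts in both lines, as were 19.1% of all transcripts.

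The shortest half-life by the mean of both lines was that of *Rab5a*, at 96.3 min in TAG/+ and 119 min in TAG/TAG. *Rab23*, which limits Hedgehog signalling, was at 161 and 80.2 min, and *Rab43* at 143 and 147 min. These 3 were below the lower quartile in both lines, as were 15.6% of all transcripts. For *Rab43*, 86.5% of 50-mers also occur in another gene, and the part of this in its half-life was not tested. *Rab12*, which acts in traffic of the transferrin receptor, was at 172 and 123 min, and *Rab11fip2*, a RAB11 effector, at 216 and 91.9 min.

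**Figure D2:**
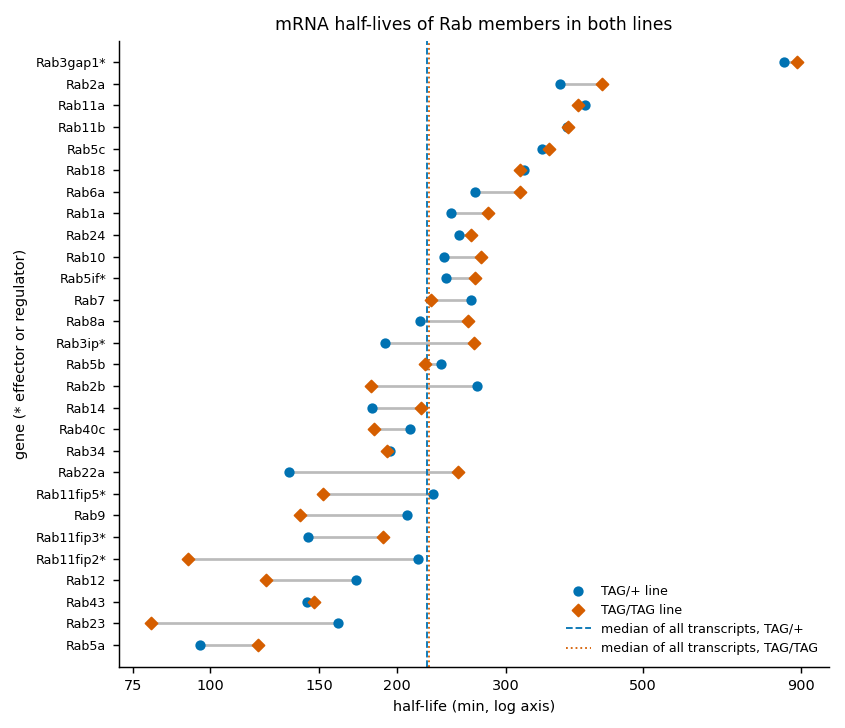
Half-life in minutes (log axis) of the 28 Rab mRNAs with a SLAM-seq value, ordered by the mean of both lines, with 1 fitted value per line and no error. Circles are the Nanos2 TAG/+ line, diamonds the Nanos2 TAG/TAG line, vertical lines the medians of all 5806 transcripts, and asterisks effectors and regulators. *Rab3gap1* lies far to the right of the others, and the widest gaps between lines are those of *Rab11fip2*, *Rab23* and *Rab22a*.

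Paralogs differed in stability as well. In the *Rab5* family, half-lives were 96.3 and 119 min for *Rab5a*, 236 and 222 min for *Rab5b*, and 343 and 352 min for *Rab5c*, the same order in both lines. The longest exceeded the shortest by 3.57-fold in TAG/+ and 2.95-fold in TAG/TAG. In the *Rab2* pair, *Rab2a* outlived *Rab2b* (269 and 181 min) by 1.37-fold and 2.37-fold. *Rab11a* and *Rab11b*, by contrast, were within 1.07-fold of each other in TAG/+ and 1.04-fold in TAG/TAG.

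By role, the 7 endoplasmic reticulum and Golgi Rabs with a half-life had medians of 267 min in TAG/+ and 281 min in TAG/TAG, and the 6 Rabs of recycling and surface delivery had medians of 228 and 268 min. The 4 early endosomal Rabs had medians of 185 and 237 min, and the 3 late endosomal Rabs of 252 and 227 min. Over both lines, half-lives ran from 143 to 429 min in the first of these, from 123 to 403 min in recycling and surface delivery, from 96.3 to 352 min in early endosomal and from 140 to 263 min in late endosomal Rabs. No Rab of regulated secretion had a half-life in the tables.

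Between the lines, half-lives of Rab mRNAs differed little on the whole. The median ratio, TAG/TAG over TAG/+, was 1.03 for Rab mRNAs and 1.03 for all transcripts. A half-life more than 1.5-fold longer in TAG/TAG was found for 1 Rab mRNA, *Rab22a* (134 and 251 min), against 10% of all transcripts. A half-life more than 1.5-fold shorter was found for 3, namely *Rab23*, *Rab11fip2* and *Rab11fip5* (229 and 152 min), against 10.7% of all transcripts. These shares among 28 mRNAs were close to the background or below it. *Rab9* (208 and 140 min) and *Rab2b* lay just inside the limit. The mean FPKM of *Rab23*, *Rab11fip2* and *Rab11fip5* was 8.28, 4.46 and 5.24. Among the 17 Rab mRNAs with a mean FPKM of at least 10, 0 were shorter-lived by this limit (8.85% of all transcripts) and 1 was longer-lived (9.02%).

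Both readouts were set side by side for the 24 Rab mRNAs that had them. FPKM and half-life differed in the same direction in 7 and in opposite directions in 17, whereas the same direction was seen for 49.6% of all 5105 transcripts past the filter. This tally was made after the values were seen, it counts differences of any size, and its departure from all transcripts was not tested. Among those with the same direction, *Rab23* (9.35 and 7.22 FPKM) and *Rab9* (20.97 and 13.1 FPKM) were lower and shorter-lived in TAG/TAG. *Rab11fip5* was more abundant and shorter-lived in TAG/TAG. *Rab2a* was less abundant and its half-life was longer (367 and 429 min). *Rab24* was less abundant with half-lives of 252 and 263 min, and *Rab22a*, with the longer half-life in TAG/TAG, was at 15.0 and 10.9 FPKM.

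Across the 24 Rab mRNAs with both values, abundance and half-life were related about as in all transcripts. Spearman's rho of the mean FPKM with the mean half-life was 0.54 for Rab mRNAs and 0.51 for all 5152 transcripts with both values. Within 1 line it was 0.39 (TAG/+) and 0.44 (TAG/TAG) for Rab mRNAs, against 0.51 and 0.45 for all. These are descriptions across genes, which are not independent replicates and which share the same libraries. *Rab2a* and *Rab3gap1* stood above the trend, with long half-lives at a mean FPKM of 6.11 and 31.8.

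**Figure D3:**
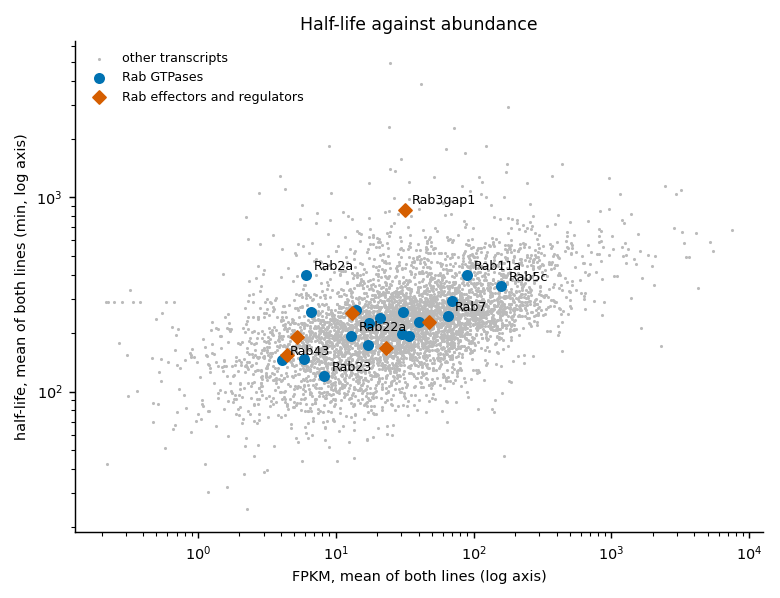
Half-life in minutes against FPKM, each as the mean of both lines and on a log axis, for the 5152 transcripts with both values. Large circles are Rab GTPases, diamonds Rab effectors and regulators, and small dots all other transcripts, and *Rab2a* and *Rab3gap1* lie above most transcripts of similar FPKM.

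The 3′ UTR is where most sequence-specific regulators of mRNA stability bind, so its annotated sequence was examined next. An annotated 3′ UTR was found for 27 of the 28 Rab mRNAs with a half-life. Their median 3′ UTR length was 1736 nucleotides, against 1219 for all 5762 such transcripts, and lengths ran from 259 (*Rab3ip*) to 6224 (*Rab22a*). On the sense strand, the letters AUUUA, the core of AU-rich elements, occurred in 23 of 27 (85.2%), against 72.6% of all. The motif searched for NANOS2, taken from the paper, covers the letters AUGAAAU, or AUGAAUU, or AUUAAAU, or AUUAAUU. At least 1 of these occurred on the sense strand in 16 of 27 (59.3%), against 41.8% of all. Longer 3′ UTRs hold any short word more often, and the lengths were not matched.

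The matches of 6 Rab mRNAs are given from GRCm38 with the GENCODE M21 annotation, with 11 bases on each side and the match in capitals. They were chosen after their half-lives were seen, as the *Rab5* family, which holds the widest spread among paralogs, the longest-lived Rab mRNA and the GTPase mRNAs with the widest differences between lines.
*Rab5a*: auuuucauuauAUGAAAUcuaccaugugu
*Rab5b*: caaccguuuuaAUUAAAUggaaucuacaa
*Rab5c*: cauccaaucucAUUAAAUggcucuacucc
*Rab23*: ccacagguaauAUUAAUUuaucaauauau
*Rab22a*: aaauuuacaagAUUAAAUaggaaaugaaa
*Rab3gap1*: uaaaucuguacAUGAAAUguagcugcaga

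All 6 matches lie in the last exon, within the 3′ UTR. The capitals are at chr17:53507518-53507524 (plus strand) in *Rab5a*, chr10:128678493-128678499 (minus) in *Rab5b* and chr11:100715165-100715171 (minus) in *Rab5c*. In *Rab23* they are at chr1:33741465-33741471 (plus), in *Rab22a* at chr2:173702553-173702559 (plus) and in *Rab3gap1* at chr1:127943121-127943127 (plus). Each of these mRNAs holds exactly 1 match. By the mean of both lines, the mRNAs with 1 match thus included the shortest half-life of the Rab mRNAs (*Rab5a*) and the longest (*Rab3gap1*), and *Rab5b* and *Rab5c* had the same 7 letters with half-lives of 236 and 343 min in TAG/+. AUUUA occurred 4 times in *Rab5a*, 5 times in *Rab5b* and 1 time in *Rab5c*.

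Across the family, a match did not go with a short half-life. Rab mRNAs with a match to the NANOS2 motif had a median half-life of 237 min in TAG/+ and 256 min in TAG/TAG, and the 11 without had 229 and 227 min. Over all transcripts, those with a match had shorter medians (196 and 199.8 min) than those without (245 and 247 min). For AUUUA the medians were 239 and 261 min in Rab mRNAs with it and 212 and 191 min in the 4 without it, against 212 and 215 min with and 258 and 261 min without over all transcripts. Spearman's rho of 3′ UTR length with half-life was -0.05 (TAG/+) and 0.01 (TAG/TAG) over the 27 Rab mRNAs and -0.27 and -0.26 over all. With 27 mRNAs these are descriptions, whose difference from all transcripts was not tested, and a match of letters does not show binding.

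**Figure D4:**
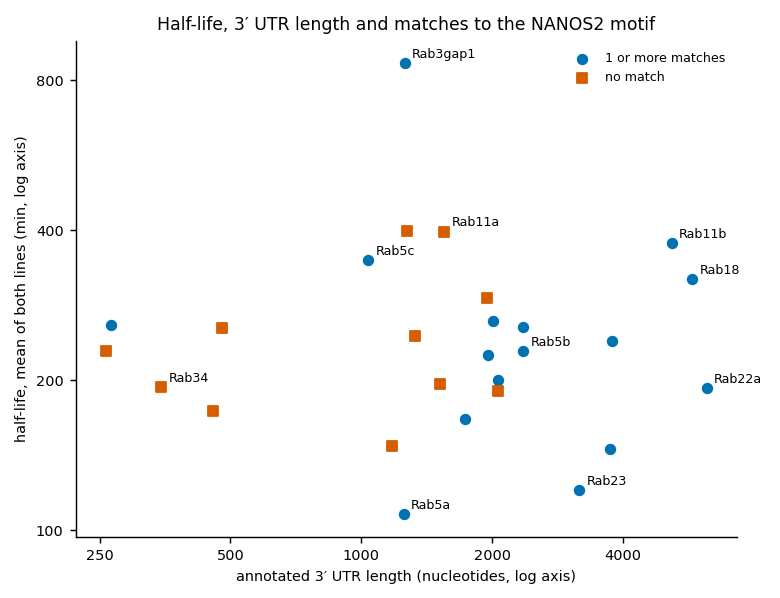
Half-life in minutes (mean of both lines) against annotated 3′ UTR length in nucleotides, both on log axes, for the 27 Rab mRNAs with both. Circles have at least 1 match to the letters of the NANOS2 motif (16 mRNAs), squares none (11 mRNAs). *Rab5a* and *Rab3gap1*, at 1251 and 1258 nucleotides, hold 1 match each and lie at opposite ends of the half-life axis.

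Finally, the genes that load, switch and read Rabs were followed through a list of 107 genes that holds no Rab mRNA. Of these, 88 had an FPKM and 87 passed the filter. In TAG/TAG, 5 were more than 2-fold higher and 0 more than 2-fold lower, against 11.7% and 8.67% of all genes, and the median log2 ratio was 0.13. The higher genes were the escort protein *Chml* (4.09 and 10.2 FPKM), the RAB7 exchange factor subunit *Mon1b* (4.50 and 9.30), the GTPase-activating protein *Tbc1d2* (1.55 and 3.87), and the effectors *Mical1* (11.7 and 27.4) and *Myo5b* (2.28 and 5.76). *Myo5b* encodes a motor that binds RAB11, the partner of *Rab11fip5*.

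Apart from *Chml*, the genes described here of the general machinery that every Rab needs differed by less than 2-fold. The GDP dissociation inhibitor *Gdi2* was at 162 and 177 FPKM (half-life 291 and 316 min). The escort protein *Chm* was at 4.92 and 4.06 FPKM (half-life 259 and 197 min). The subunits of the geranylgeranyl transferase, which attaches the lipid, were at 44.2 and 62.5 FPKM (*Rabggta*) and 3.24 and 4.02 FPKM (*Rabggtb*, half-life 121 and 110 min). Half-lives were listed for 45 genes of the list, with medians of 209 min in TAG/+ and 219 min in TAG/TAG, against 224 and 226 min over all transcripts. Of the 45, 18 were below and 14 above the median of all transcripts in both lines, and each of these held for 39.8% of all transcripts.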

How the data were processed

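RNA-seq (1 library per line) and SLAM-seq (12 libraries per line) values were used, and 4 CRAC samples were left out. The FPKM values were deposited by the authors, and kallisto and DESeq2 are named in the submitters' processing notes. The build and annotation behind FPKM are not given in the sources used here. The columns, named GG and Gp, were read as TAG/TAG and TAG/+. The labels call the half-life sets CTL and EXP, and their genotypes were taken from the tables' own names. Half-lives (unit other, minutes) were deposited by the authors, who computed conversion rates with SlamDunk and fitted a first-order decay with nls after collapsing technical replicates. They carry no error or depth.

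FPKM times the mean annotated transcript length (GENCODE M21) and a scaling depth, 10908790 (TAG/+) and 11738620 (TAG/TAG), gave whole reads, within 0.01, for 100% of 13884 genes. The scaling depth is a normalised size and not the number of reads. These reads gave the 95% intervals and a floor of 3 reads. PCR copies are not independent, so intervals and floors cover counting error only. Log2 ratios used a pseudocount of 0.1 FPKM, which understates changes of low genes, and a filter of mean FPKM 1. Limits were 2-fold for FPKM and 1.5-fold for half-life.

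Members were grouped by role. Those singled out were the 5 highest and 5 lowest in FPKM, the 5 longest and 5 shortest in half-life, all past the fold limits, and paralogs sharing a number. The members and lists were chosen with earlier results of these data known. For each gene, 1 coding transcript (APPRIS principal, else the longest 3′ UTR) supplied the 3′ UTR, from its stop codon to its end. Shared sequence is the percent of 50-mers, taken every 10 bases, found on the same strand in transcripts of another gene. Scripts (Python 3.11.15, pandas 2.3.3, numpy 2.4.6, scipy 1.17.1) were tested on simulated data. Of the genes to be given in full, 1 is not reported here. Alternatives are given in the closing section.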

Additional observations from a re-analysis of the deposited data

How the results depend on the processing

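No paired analysis was possible because each line has 1 library and 1 fitted half-life per transcript. No replicate could be left out for the same reason. Under 41 alternative values, 27 stayed within 1.5 times the count, or within the spread allowed, and 14 moved, with 0 changes of sign. The spread allowed was the SD between the lines for half-life medians and correlations, and 0.1 for the median log2 ratio. With a mean FPKM of at least 5, 2 of 31 Rab mRNAs were more than 2-fold higher, against 6.77% of all genes. The median log2 ratio was then -0.17, against -0.02 over all genes. With a pseudocount of 1 FPKM, 3 were higher and 2 lower, against 8.53% and 6.34% of all genes, and *Rab25* and *Rab42* lost their calls. With GTPases only, 2 of 36 were higher (11.7% of all genes) and 1 of 22 had a half-life more than 1.5-fold shorter (10.7% of all transcripts). Over GTPases only, the rank correlation of FPKM with half-life was 0.48. With half-lives up to 540 min, the TAG/TAG median was 227 min, against 218 min over all transcripts. With a mean FPKM of at least 10, 17 Rab mRNAs remained in the half-life comparison, with medians of 239 and 261 min, against 238 and 242 min over all transcripts. Of these 17, 5 were below and 7 above the median of all transcripts in both lines, against 39.2% of all transcripts on each side. A shorter half-life was found for 0 of them, against 8.85% of all transcripts. With half-life ratios centred on the median of all transcripts, 5 of 28 were shorter, against 11.97% of all transcripts. The rank correlation of FPKM with half-life was 0.39 in TAG/+ alone and 0.44 in TAG/TAG alone. Fewer genes entered under the FPKM limits and the restriction to GTPases, and the cause of the other shifts was not tested. Leaving out the members that share over 10% of their 50-mers with another gene, chosen after seeing the data, left 3 higher and 3 lower of 41. Over all genes the shares were 11.7% and 8.67%.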

Other observations

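In each half-life table, 22 transcripts carried 1 identical value, 317 min in TAG/+ and 259 min in TAG/TAG, and they were the same 22 transcripts in both tables. None of them was a Rab mRNA. This was noticed after the data were seen, and its cause was not tested.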
